A study of Homo sapiens with 12 samples.

Results

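The genes described here are 47 genes of the hypoxia response, of glycolysis and of glucose sensing in A549, a human lung adenocarcinoma cell line. They were chosen by symbol: a probe set (a group of array probes for 1 transcript) was taken where the probe table gave exactly 1 of the 47 symbols, and the probe set with the highest mean over the 12 arrays stood for its gene. Of the 47 genes, 45 had such a probe set and 44 were tested, among 14649 genes tested of 19775 with a probe set. CA9 and SLC16A3 were not analysed here. LOX, a lysyl oxidase that crosslinks collagen, had a mean of 4.15 and lay below the filter on dim probe sets, which was 5.39 on the log2 scale.

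Expression was measured on an Affymetrix array in side population (SP) cells and in the other sorted cells (non-SP). SP cells are those that exclude a Hoechst DNA dye during 90 min with 5 µg/ml of it, and viable cells were sorted by flow cytometry. The 4 groups were A549 SP cells under anti-EpCAM, A549 non-SP cells under anti-EpCAM, untreated A549 SP cells and untreated A549 non-SP cells, each with 3 arrays that the labels call biological replicates. The antibody against EpCAM, an epithelial adhesion protein, was given for 48 h at 100 µg/ml; it is labelled anti-mouse EpCAM without saying whether mouse is its target or its host, and the labels name no control antibody. All groups were exposed to the dye and sorted, and all come from 1 cell line, so the replicates sample cultures of that line only.

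Cells adapt to low oxygen through HIF transcription factors. In the presence of oxygen, prolyl hydroxylases (EGLN proteins) mark HIF subunits for degradation, so that HIF is controlled mainly through its protein and less through its mRNA. When oxygen falls, HIF binds promoters at short sites with the core ACGTG or GCGTG and raises genes of angiogenesis, glucose uptake, glycolysis and mitophagy, along with kinases that keep pyruvate out of the mitochondria. Glucose is sensed on a separate route. MondoA, the product of MLXIP, responds to sugar phosphates and drives TXNIP and ARRDC4, whose products are arrestin-domain proteins that reduce glucose uptake.

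Promoter windows of 3 members are shown with the short motifs searched in them. They were picked because ARRDC4 had the largest difference between the fractions among the members and TXNIP is its partner in glucose sensing. DDIT4 was picked as the 1 gene that passed the test among those grouped here as hypoxia targets. The windows run from 250 bases before to 50 bases after the gene start and come from RefSeq, build GRCh38. ARRDC4 lies at chr15:97960453-97960752 on the plus strand, TXNIP at chr1:145996530-145996829 on the minus strand, and DDIT4 at chr10:72273674-72273973 on the plus strand. Capitals mark ACGTG or GCGTG on either strand (CACGT or CACGC where the match is on the other strand) and, in TXNIP, also the paired CACGAG.
ARRDC4: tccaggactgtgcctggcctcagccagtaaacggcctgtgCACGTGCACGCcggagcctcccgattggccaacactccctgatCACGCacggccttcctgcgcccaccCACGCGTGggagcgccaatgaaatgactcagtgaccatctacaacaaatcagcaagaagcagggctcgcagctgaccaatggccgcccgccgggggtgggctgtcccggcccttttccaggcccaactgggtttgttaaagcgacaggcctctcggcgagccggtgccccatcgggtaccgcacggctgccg
TXNIP: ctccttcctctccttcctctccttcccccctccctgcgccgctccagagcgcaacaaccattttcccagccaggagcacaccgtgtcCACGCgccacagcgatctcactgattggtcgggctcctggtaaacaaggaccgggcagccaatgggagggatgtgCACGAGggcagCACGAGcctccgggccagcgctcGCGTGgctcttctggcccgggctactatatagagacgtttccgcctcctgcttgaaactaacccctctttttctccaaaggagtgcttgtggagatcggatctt
DDIT4: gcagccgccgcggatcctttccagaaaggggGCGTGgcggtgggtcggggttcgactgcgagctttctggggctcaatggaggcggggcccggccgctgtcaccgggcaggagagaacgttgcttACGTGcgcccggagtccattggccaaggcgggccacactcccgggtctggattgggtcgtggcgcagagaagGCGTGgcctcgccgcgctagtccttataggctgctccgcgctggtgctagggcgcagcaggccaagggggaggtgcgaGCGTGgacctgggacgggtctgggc
The ARRDC4 window holds CACGTG from position -210, counted with the first base of the gene as 1 and no position 0. CACGTG reads the same on both strands and so counts as ACGTG on each. GCGTG cores stood at -204, -167, -142 and -139 in ARRDC4, the last pair overlapping each other. DDIT4 had ACGTG at -125 and GCGTG at -219, at -53 and at 26. In TXNIP, 1 of its 2 windows is shown, with GCGTG cores at -163 and -54 and a pair of CACGAG letters 5 bases apart from -88.

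A motif match describes letters and is no evidence of binding. Windows were found for 43 of the 47 members, 71 in all, and not for VEGFA, NDRG1, BNIP3L and SLC2A3. ACGTG was found on either strand in 31 of the 71 windows (43.7%), against 21.4% of all 35116 windows. GCGTG was found in 34 (47.9%), against 36.5% of all windows. At least 1 of these cores was present in 51 windows (71.8%), against 48.4% of all. Counted by gene, it was present in 38 of the 43 members with a window. Some members have several windows and no share by gene was taken over all genes, so this count has nothing to be set against. The windows of PDK4, ARRDC3, EGLN3, P4HA2 and PGAM1 held neither core. CACGTG was found in 11 of the 71 windows (15.5%), against 7.26% of all. The carbohydrate response element searched for, CACGTGNNNNNCACGTG, was found in 0 of the 71 and in 2 of all windows. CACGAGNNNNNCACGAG, which was searched for after the TXNIP window had been read, was also found in 2 of all windows, 1 of them that of TXNIP.

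Markers of epithelium and of other cell types were read on the arrays. EPCAM, KRT8, KRT18, KRT19 and CDH1 were all above the filter, with means of 9.84 to 14.55. EPCAM, the gene of the protein that the antibody is named for, rose in SP cells by 0.26 (limma adjusted p = 0.0435), and the other 4 did not pass. Of the leukocyte markers PTPRC and LYZ were below the filter and CD3E was above it; of the endothelial markers VWF and CDH5 were below it and PECAM1 above it. Summed log2 levels of the 3 leukocyte markers spanned 13.45 to 16.31 in anti-EpCAM SP, 13.47 to 16.49 in anti-EpCAM non-SP, 14.77 to 16.07 in untreated SP and 14.03 to 16.23 in untreated non-SP arrays. Of the 3 fibroblast markers, which were all above the filter, COL1A1 had a mean of 9.28 and differed by -0.57 in SP against non-SP (limma adjusted p = 0.00966), whereas COL1A2 and DCN differed by 0.13 and -0.05 (adjusted p = 0.285 and 0.819). The part of such cells in the results was not tested.

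Array medians lay between 5.59 and 6.24. Within a treatment, SP and non-SP arrays with 1 number had nearly the same distribution of values, with a mean difference between sorted values of 0.0093 to 0.0213, against 0.0461 to 0.524 for the other 60 array pairs. Their deviations from the group means also correlated across genes, with r between 0.62 and 0.89. Fraction differences were taken within these 6 pairs, which was set beforehand with earlier results of these data known. The labels do not say whether the 2 arrays of a pair came from 1 sort. A shared sort and shared processing of the arrays cannot be told apart. The balance of 3′ and 5′ signal of the control transcripts differed within some pairs. The GAPDH 3′ minus 5′ log2 difference, SP minus non-SP, was 0.54, 0.30 and -0.38 in anti-EpCAM pairs 1 to 3, against -0.11 to 0.11 in the untreated pairs. The ACTB 3′ minus 5′ log2 difference was higher in SP by 1.86 in anti-EpCAM pair 1 and lower by -2.09 in anti-EpCAM pair 3, against -0.36 to 0.27 in the other 4 pairs. Under anti-EpCAM it was 3.14 in SP array 1 and 3.13 in non-SP array 3. It was 1.03 in SP array 3 and 1.28 in non-SP array 1. By this control the anti-EpCAM arrays were alike across numbers 1 and 3, whereas their distributions and deviations were alike within a number. The cause was not tested.

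The first comparison asked which of these genes differed between SP and non-SP cells over both treatments. In SP cells ARRDC4 fell and SLC2A3, PDK4, ARRDC3 and DDIT4 rose, while the enzymes of glycolysis and most hypoxia targets did not pass the test. The 5 genes are 5 of the 44 tested members (11.4%), beside 2.47% of all genes tested (362 of 14649), at an adjusted p under 0.05 in a paired limma fit. The 4 that rose compare with 1.02% of all genes rising, and the 1 that fell with 1.45% of all genes falling. The members were chosen with earlier results of these data known, so these shares are a description. In such bulk samples fewer cells with a transcript and less of it per cell cannot be told apart.

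**Figure D1:**
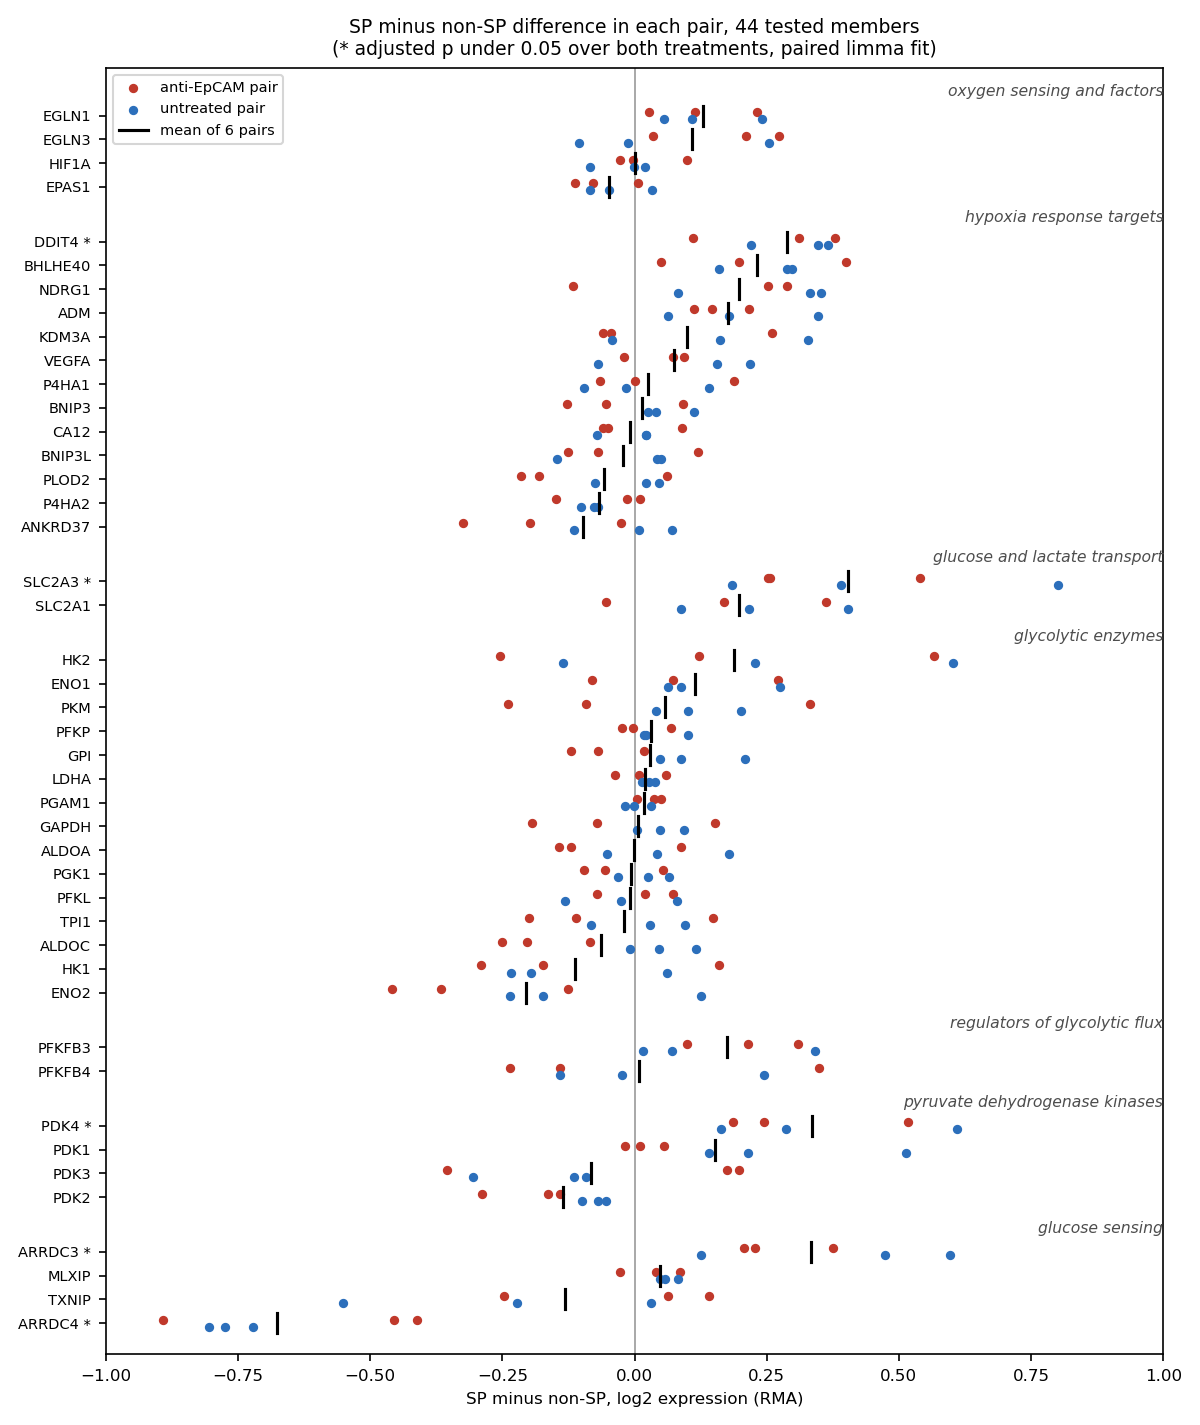
SP minus non-SP difference in log2 expression (horizontal axis) of each of the 44 tested members (rows, ordered by role) in the 3 anti-EpCAM pairs (red) and the 3 untreated pairs (blue), with the mean of the 6 pairs as a black bar. ARRDC4 lies at -0.41 or lower in all 6 pairs, the starred SLC2A3, PDK4, ARRDC3 and DDIT4 lie above 0 in all 6, and most glycolytic enzymes straddle 0.

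All of these calls rest on the pairing. When the 12 arrays were fitted as independent samples, limma called 0 genes (220 at an unadjusted p under 0.05) and 0 members (1 at an unadjusted p under 0.05), and the smallest adjusted p over all genes was 0.157. Without anti-EpCAM pairs 1 and 3, whose ACTB balance stood apart, 27 genes passed and ARRDC4 was the 1 member among them. Independently of any model, 8 of the 44 members were higher in SP cells in all 6 pairs (18.2%), beside 6.03% of all genes. These were DDIT4, SLC2A3, PDK4, ARRDC3, EGLN1, ADM, BHLHE40 and PFKFB3. Another 2, ARRDC4 and PDK2, were lower in all 6 pairs (4.55%), beside 4.68% of all genes. Over the 44 members, 27 estimates were above 0 (61.4%) with a median of 0.018, beside 52.4% and a median of 0.0056 over all genes tested.

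Glucose sensing held both the largest fall and a rise. ARRDC4 had levels of 6.44, 7.38 and 7.43 in anti-EpCAM SP arrays 1 to 3, against 6.85, 7.83 and 8.32 in anti-EpCAM non-SP arrays. In untreated cells its levels were 6.47, 6.36 and 7.70 in SP arrays, against 7.19, 7.17 and 8.47 in non-SP arrays. The SP array was the lower one in every pair, yet the ranges of the SP and non-SP groups overlapped, since the pairs themselves lay apart, with pair means between 6.64 and 8.08. Over both treatments the SP minus non-SP difference of ARRDC4 was -0.68 ± 0.068 (SE, 6 pairs), a level 1.60-fold lower (limma adjusted p = 0.00174). It ranked 11 by p among all 14649 genes and 19 by size among those with a negative difference. It was the 1 member that passed with every single pair left out, with adjusted p of at most 0.0186, and also without anti-EpCAM pairs 1 and 3 together (-0.61, adjusted p = 0.0238). With the GAPDH 3′ to 5′ balance of each pair as a covariate, its difference was -0.72 (adjusted p = 0.00175). ARRDC4 had 1 probe set, so no other set of probes could be read beside it.

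TXNIP, the thioredoxin-interacting arrestin-domain gene that MondoA also drives, did not share this pattern across pairs. Its levels were 5.94, 7.58 and 7.60 in anti-EpCAM SP arrays, against 5.80, 7.52 and 7.85 in anti-EpCAM non-SP arrays. In untreated cells they were 6.09, 6.69 and 7.42 in SP arrays, against 6.31, 6.66 and 7.97 in non-SP arrays. SP was the higher array in 3 pairs and the lower one in the other 3, with the widest gap in untreated pair 3 (-0.55). The mean difference was -0.13 ± 0.080 (SE, 6 pairs; limma adjusted p = 0.466), with a 95% interval of -0.31 to 0.047. Its other probe set above the filter gave -0.14. A fall of the size seen in ARRDC4 lies outside that interval.

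ARRDC3 codes for a related arrestin-domain protein that acts in the trafficking of membrane receptors, and it moved the other way from ARRDC4. Its levels were 10.54, 10.29 and 9.94 in anti-EpCAM SP arrays, against 10.33, 10.06 and 9.56 in anti-EpCAM non-SP arrays. In untreated cells they were 10.82, 9.96 and 10.20 in SP arrays, against 10.22, 9.83 and 9.73 in non-SP arrays. The SP array was the higher one in each of the 6 pairs, although the groups overlapped. The difference was 0.33 ± 0.067 (SE, 6 pairs), a 1.26-fold higher level in SP cells (limma adjusted p = 0.0307). The call was kept without untreated pair 2 or anti-EpCAM pair 1, and was lost without any of the other 4 (adjusted p = 0.0795 to 0.136). MLXIP, which codes for MondoA itself, was higher in SP in 5 of 6 pairs by 0.048 on average (adjusted p = 0.687).

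**Figure D2:**
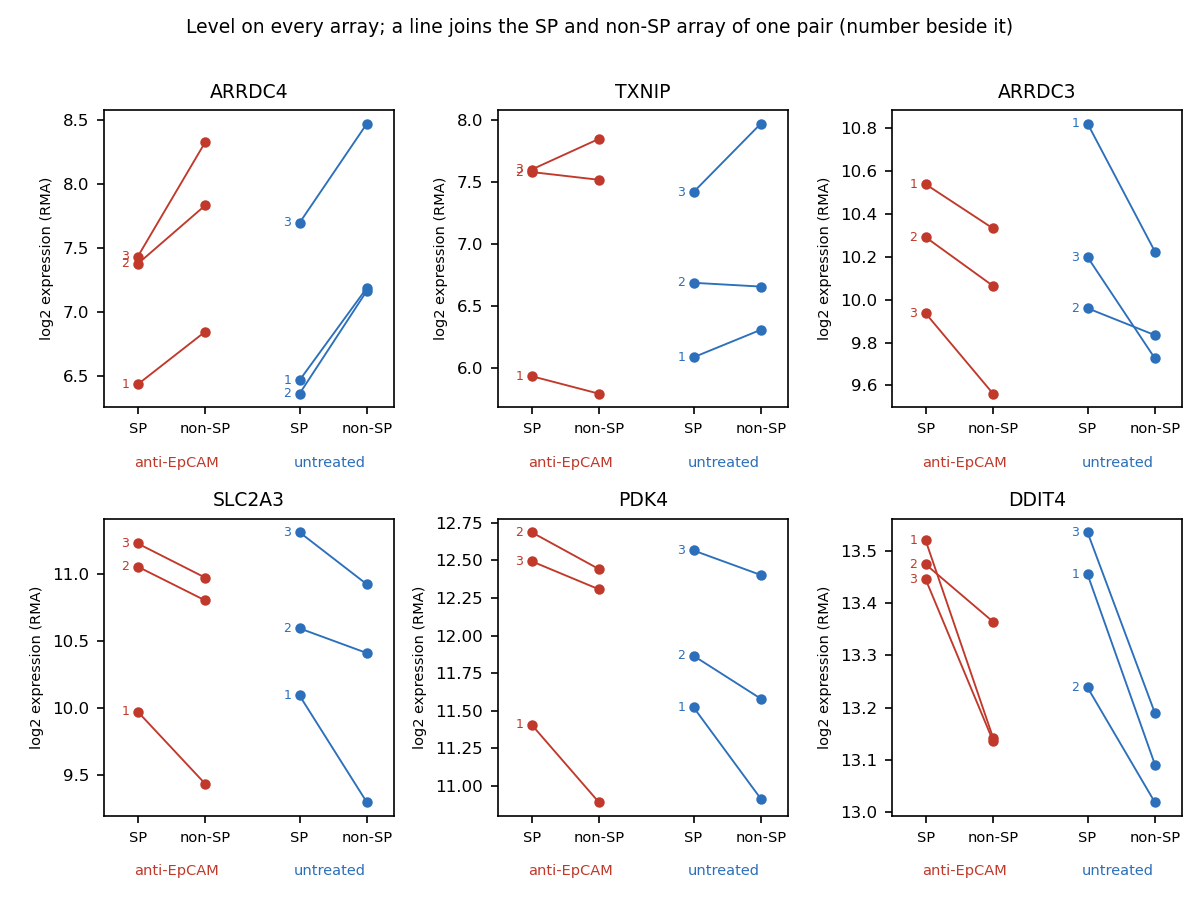
Log2 expression on each of the 12 arrays (vertical axis, a separate scale for each gene) for ARRDC4, TXNIP, ARRDC3, SLC2A3, PDK4 and DDIT4, with SP left of non-SP under anti-EpCAM (red) and in untreated cells (blue); a line joins the 2 arrays of a pair, whose number stands beside it. Lines climb toward non-SP in all 6 pairs for ARRDC4 and descend in all 6 for ARRDC3, SLC2A3, PDK4 and DDIT4, whereas those of TXNIP run both ways.

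Glucose transport was represented by 2 tested genes. SLC2A3 codes for GLUT3, a high-affinity glucose transporter. Its levels were 9.97, 11.06 and 11.23 in anti-EpCAM SP arrays, against 9.43, 10.80 and 10.97 in anti-EpCAM non-SP arrays. In untreated cells they were 10.09, 10.60 and 11.31 in SP arrays, against 9.29, 10.41 and 10.92 in non-SP arrays. Each SP array exceeded the non-SP array of its pair, most in untreated pair 1 (0.80), and the groups overlapped because the pairs lay far apart. The difference was 0.40 ± 0.080 (SE, 6 pairs), 1.32-fold higher in SP cells (limma adjusted p = 0.0288). The other 2 SLC2A3 probe sets above the filter gave 0.33 and 0.63. The near-identical paralog SLC2A14 could share signal with these probe sets, so the split between the 2 genes is uncertain. The SLC2A3 call was kept without untreated pair 2 and lost without any of the other 5 pairs (adjusted p = 0.0561 to 0.0989), as well as with the GAPDH balance as a covariate (adjusted p = 0.0557). SLC2A1, which codes for GLUT1, the widely expressed glucose transporter, differed by 0.20 ± 0.067 (SE, 6 pairs; adjusted p = 0.177), with SP higher in 5 pairs.

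Pyruvate dehydrogenase kinases inhibit the enzyme complex that feeds pyruvate into the mitochondria, and 1 of 4 passed. PDK4 had levels of 11.41, 12.69 and 12.49 in anti-EpCAM SP arrays, against 10.89, 12.44 and 12.31 in anti-EpCAM non-SP arrays. In untreated cells its levels were 11.52, 11.87 and 12.57 in SP arrays, against 10.91, 11.58 and 12.40 in non-SP arrays. SP was the higher array in all 6 pairs, most so in the 2 pairs numbered 1, and the groups overlapped. The difference was 0.33 ± 0.071 (SE, 6 pairs), 1.26-fold higher in SP cells (limma adjusted p = 0.0384), and the other PDK4 probe sets above the filter gave 0.38 and 0.88. The call was lost without any 1 of the 6 pairs (adjusted p = 0.0559 to 0.117), with the GAPDH balance as a covariate (0.0661) and after quantile normalization (0.0506). PDK2 was lower in SP in all 6 pairs by a mean of -0.14 ± 0.050 but did not pass (adjusted p = 0.216). PDK1, a classical HIF target, differed by 0.15 ± 0.060 (adjusted p = 0.241), and its other probe set above the filter had the opposite sign (-0.13). PDK3 differed by -0.082 (adjusted p = 0.652).

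Among the 13 tested hypoxia targets, 1 rose and 0 fell, beside 1.02% of all genes rising and 1.45% falling. Of their estimates 8 were above 0 (61.5%) with a median of 0.025, beside 52.4% and a median of 0.0056 over all genes tested. Glucose transporters, glycolytic enzymes and pyruvate dehydrogenase kinases were grouped apart from these. DDIT4 codes for REDD1, an inhibitor of mTORC1 signalling that HIF and other stress pathways induce. Its levels were 13.52, 13.47 and 13.45 in anti-EpCAM SP arrays, against 13.14, 13.36 and 13.14 in anti-EpCAM non-SP arrays. In untreated cells they were 13.46, 13.24 and 13.54 in SP arrays, against 13.09, 13.02 and 13.19 in non-SP arrays. Within each treatment every SP array lay above every non-SP array. The difference was 0.29 ± 0.056 (SE, 6 pairs), 1.22-fold higher in SP cells (limma adjusted p = 0.0274). The call was lost without any 1 of the 6 pairs (adjusted p = 0.0529 to 0.124). It was kept with the GAPDH balance as a covariate (adjusted p = 0.0440).

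The other hypoxia targets did not pass. BHLHE40, a transcriptional repressor, had the next largest estimate at 0.23 ± 0.059 (adjusted p = 0.0761), with SP higher in all 6 pairs. NDRG1, a stress-responsive gene, had 0.20 ± 0.068 (adjusted p = 0.183) with SP higher in 5 pairs, and ADM, the vasodilator peptide adrenomedullin, 0.18 ± 0.055 (adjusted p = 0.139) with SP higher in all 6. VEGFA, the main angiogenic ligand of the hypoxia response, differed by 0.075 ± 0.056 (adjusted p = 0.557), with a 95% interval of -0.050 to 0.20. Its other probe sets above the filter gave 0.057, 0.21 and 0.25, so the interval holds only for the probe set used. The mitophagy receptors BNIP3 and BNIP3L differed by 0.015 and -0.022. The collagen hydroxylases P4HA1, P4HA2 and PLOD2 had 0.025, -0.066 and -0.057. KDM3A, a histone demethylase, had 0.10, and ANKRD37, an ankyrin repeat gene, -0.097. CA12, a carbonic anhydrase, had -0.0081, and its other probe sets above the filter lay between -0.15 and 0.25. LOX, untested, was higher in SP in 4 of 6 pairs.

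The mRNAs of the oxygen-sensing machinery itself showed no difference past the threshold. HIF1A lay between 13.36 and 13.86 on all 12 arrays and differed by 0.00052 ± 0.051 (SE, 6 pairs; limma adjusted p = 0.998), with a 95% interval of -0.11 to 0.11. EPAS1, which codes for HIF-2α, differed by -0.048 (adjusted p = 0.697). The prolyl hydroxylase gene EGLN1 was higher in SP in all 6 pairs by a mean of 0.13 ± 0.054 (adjusted p = 0.273), and EGLN3 in 4 pairs by 0.11 ± 0.063 (adjusted p = 0.437).

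None of the 15 glycolytic enzyme genes passed in the paired limma fit, beside 2.47% of all genes tested. ENO2 alone was under an unadjusted p of 0.05, as were 2377 of all 14649 genes. Of the 15 estimates 8 were above 0 (53.3%) and 7 below, with a median of 0.0057, beside 52.4% and 0.0056 over all genes. The 15 had a range of -0.21 to 0.19. The ends of the range were ENO2, a neuronal-type enolase (-0.21 ± 0.067, adjusted p = 0.159, lower in 5 pairs), and HK2, the inducible hexokinase (0.19 ± 0.11, adjusted p = 0.445, higher in 4 pairs). The HK2 difference was 0.082 without anti-EpCAM pair 1, 0.095 without untreated pair 2 and 0.29 without anti-EpCAM pair 3. LDHA, the lactate dehydrogenase subunit that HIF induces, differed by 0.019 with a 95% interval of -0.090 to 0.13. GAPDH, often used as a reference gene, differed by 0.0057 with an interval of -0.12 to 0.13. PGK1, phosphoglycerate kinase, differed by -0.0065 with an interval of -0.12 to 0.11. Its other probe sets above the filter gave 0.18, -0.0055, 0.13, 0.20 and -0.11, some of them outside that interval. The remaining enzymes, HK1, GPI, PFKL, PFKP, ALDOA, ALDOC, TPI1, PGAM1, ENO1 and PKM, lay between -0.11 (HK1) and 0.11 (ENO1). Of the regulators that set fructose 2,6-bisphosphate, PFKFB3 was higher in SP in all 6 pairs by 0.17 ± 0.060 (adjusted p = 0.183), and PFKFB4 differed by 0.0085 ± 0.082 (adjusted p = 0.974).

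Hypoxia targets were set beside ARRDC4 and TXNIP in each pair. The mean over 15 genes (the 13 tested targets with EGLN1 and EGLN3) was above 0 in all 6 pairs, between 0.0082 and 0.14, and averaged 0.073 ± 0.051 (SD, 6 pairs). The number of these 15 genes that were higher in SP ranged from 7 to 13 over the pairs. In anti-EpCAM pair 3 it was 7, and their median there was -0.021. The mean over all genes tested was above 0 in 4 of the 6 pairs and averaged 0.0014 ± 0.031. ARRDC4 lay below the hypoxia mean in every pair, by 0.46 to 0.96 (0.75 ± 0.21, SD, 6 pairs). TXNIP lay below it in 3 pairs, with a mean gap of 0.20 ± 0.30 (SD, 6 pairs). These gaps are descriptions of genes picked for the contrast and carry no test.

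**Figure D3:**
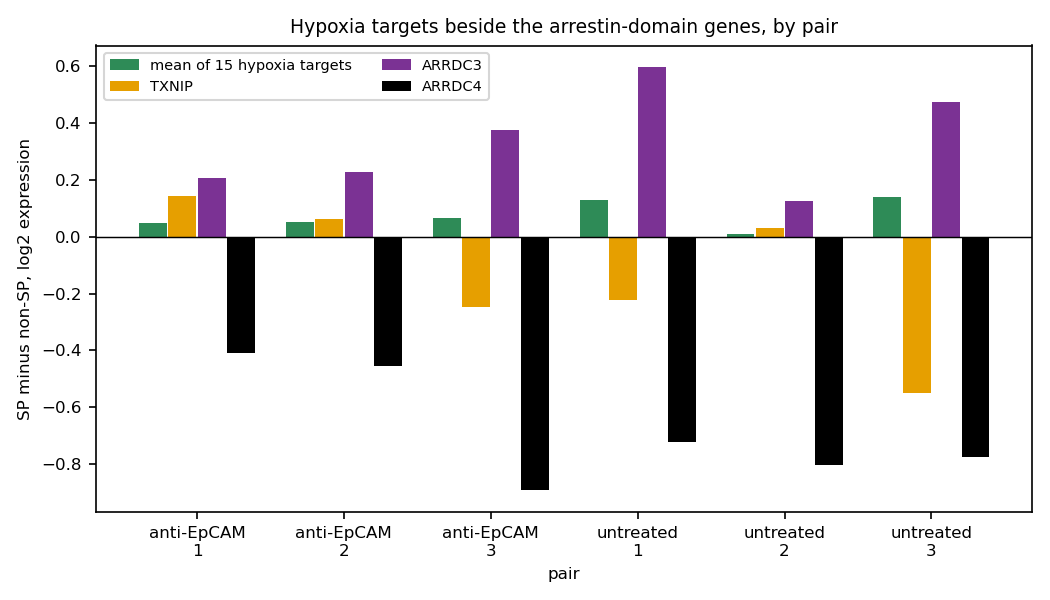
SP minus non-SP difference in log2 expression (vertical axis) in each of the 3 anti-EpCAM and 3 untreated pairs for the mean of 15 hypoxia targets (green) and for TXNIP (orange), ARRDC3 (purple) and ARRDC4 (black). The green bars stay between 0.0082 and 0.14, ARRDC4 is below 0 and ARRDC3 above 0 in all 6 pairs, and TXNIP is above 0 in 3.

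A further 60 genes of the same pathways were listed alongside the members, and 51 of them were tested. None passed in the paired limma fit over both treatments, beside 2.47% of all genes tested. Of the estimates 22 were above 0 (43.1%) and 29 below, with a median of -0.0095. Over all genes tested 52.4% were above 0 with a median of 0.0056. The smallest p-values among positive differences belonged to PPP1R3C, a glycogen-targeting subunit of protein phosphatase (0.20 ± 0.055, adjusted p = 0.0973), and ANGPTL4, a lipoprotein lipase inhibitor and HIF target (0.26 ± 0.081, adjusted p = 0.134). Those among negative differences belonged to SLC2A6, a glucose transporter family member (-0.29 ± 0.086, adjusted p = 0.120), and MPC1, a subunit of the mitochondrial pyruvate carrier (-0.29 ± 0.086, adjusted p = 0.120).

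The second comparison took the fractions apart by antibody. Each estimate was the mean of 3 pairs, and its SE came from 1 estimate of spread per gene shared by all 6 pairs. Under anti-EpCAM, ARRDC4 alone of the 44 members passed, as a fall of -0.59 ± 0.097 (SE, 3 pairs; limma adjusted p = 0.0473), beside 0.246% of all genes passing in either direction (0.0546% higher and 0.191% lower). That call was lost when any 1 of the 6 pairs was left out (adjusted p = 0.0609 to 0.272). In untreated cells ARRDC4 was again the 1 member that passed, with -0.77 ± 0.097 (SE, 3 pairs; limma adjusted p = 0.0276), beside 0.0956% of all genes (0.0273% higher and 0.0683% lower). That call was lost without any 1 of the 3 untreated pairs or without anti-EpCAM pair 2 (adjusted p = 0.104 to 0.279). The 4 genes that rose over both treatments had the same sign in each treatment without passing in either. SLC2A3 had 0.35 under anti-EpCAM and 0.46 in untreated cells, PDK4 0.32 and 0.35, ARRDC3 0.27 and 0.40, and DDIT4 0.27 and 0.31, in that order of treatment.

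The difference between these fraction effects was tested as an interaction (anti-EpCAM minus untreated). It passed for 0% of genes, members included, with 249 genes and 2 members at an unadjusted p under 0.05 in limma. The 2 members were PDK1 (-0.27 ± 0.12) and ALDOC, an aldolase (-0.23 ± 0.10). PDK1 had pair differences of -0.02, 0.01 and 0.05 under anti-EpCAM, against 0.51, 0.14 and 0.22 in untreated cells. The 3 untreated pairs all lay above the anti-EpCAM pairs, and the interaction did not pass after adjustment. The other PDK1 probe set above the filter differed by -0.15 under anti-EpCAM and by -0.10 in untreated cells. For ARRDC4 the interaction was 0.18 with a 95% interval of -0.12 to 0.48, and for TXNIP 0.23 with an interval of -0.12 to 0.59. Neither passed, and both intervals hold 0. The other TXNIP probe set above the filter had the larger fall under anti-EpCAM (-0.17) and the smaller in untreated cells (-0.11).

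**Figure D4:**
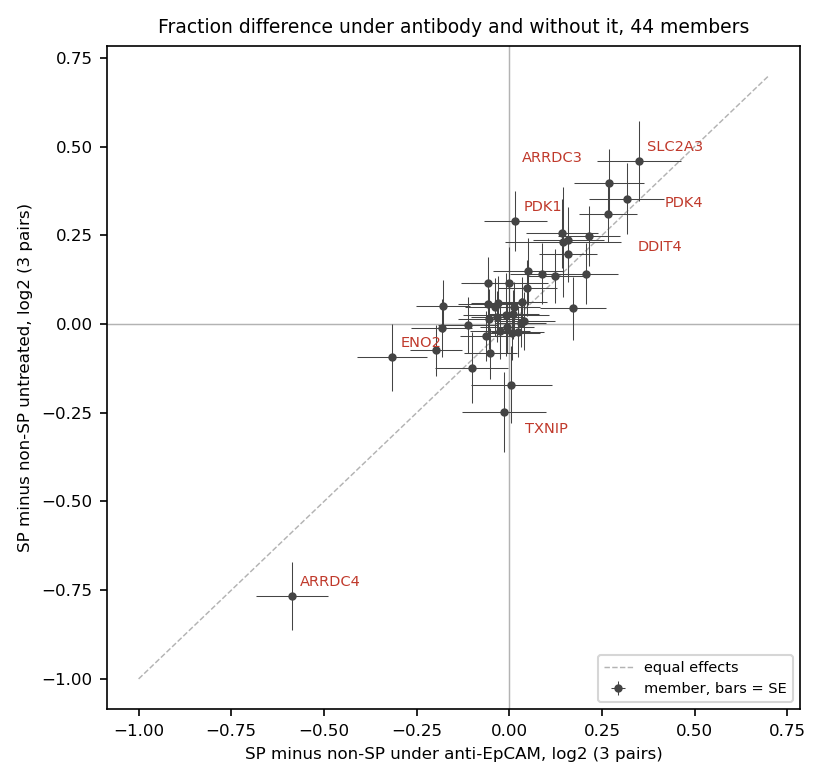
SP minus non-SP difference in log2 expression under anti-EpCAM (horizontal axis, mean of 3 pairs) against that in untreated cells (vertical axis, mean of 3 pairs) for the 44 tested members, with standard errors from the paired fit as bars; the dashed line marks equal effects. ARRDC4 lies apart at -0.59 and -0.77, SLC2A3, PDK4, ARRDC3 and DDIT4 lie above 0 on both axes, and PDK1 lies at 0.29 on the untreated axis and 0.016 on the anti-EpCAM axis.

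The third comparison set anti-EpCAM against untreated cells, each pair counting once by the mean of its SP and non-SP arrays (3 against 3). In limma 0% of genes passed, with 57 genes and 0 members at an unadjusted p under 0.05. The members' differences lay between -0.11 (SLC2A1) and 0.34 (PKM, a pyruvate kinase), 34 of 44 were above 0 and their median was 0.053. Over all genes tested 79.5% were above 0 with a median of 0.091, a shift that genes across the array shared. After quantile normalization of the 12 arrays the members' median was 0.0093 with 23 of 44 above 0, and that of all genes 0.012. All 15 glycolytic enzymes were above 0 with a median of 0.11 before that normalization.

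The spread between pairs limits this comparison more than that between fractions. ARRDC4 averaged 7.37 ± 0.65 over the anti-EpCAM pairs, against 7.23 ± 0.74 over the untreated pairs (SD, n = 3 each). TXNIP averaged 7.05 ± 1.02, against 6.86 ± 0.76, and SLC2A3 10.58 ± 0.76, against 10.44 ± 0.72, over the same pairs. In 37 of the 44 members the SD of the 6 pair means exceeded the SD of the 6 pair differences, with medians of 0.19 and 0.12. The widest ranges over the 12 arrays were those of TXNIP (2.17), ARRDC4 (2.11), SLC2A3 (2.02), PDK4 (1.80) and PKM (1.42), and for LDHA the range was 0.28.

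Where a gene had several probe sets, they did not always point the same way. Another probe set above the filter existed for 25 of the members. In 7 of these, CA12, GAPDH, PDK1, PDK3, PFKFB4, PGK1 and TPI1, at least 1 of the others had the opposite sign of the SP minus non-SP difference over both treatments. None of these 7 passed the test. ARRDC4, ARRDC3 and DDIT4 had no other probe set above the filter, and those of SLC2A3 and PDK4 all pointed upward.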

How the data were processed

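RNA of 12 A549 samples was hybridised to Affymetrix arrays. The deposited values are log2 expression per probe set, made by the authors with RMA per the submitters' processing notes; its version and the arrays processed together are not given in the sources used here. Values ran from 2.43 to 14.95 and were not normalized further. Of 54613 probe sets without the 62 controls, 41091 had 1 gene symbol in the probe table, 1801 several and 11721 no entry. Probe sets with a mean above the 40th percentile (5.39) were kept and the one with the highest mean stood for its gene.

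SP minus non-SP differences in 6 pairs of the same treatment and number were fitted with limma 3.58.1 (R 4.3.3), two-sided, with Benjamini-Hochberg adjustment over 14649 genes and a threshold of 0.05. The pairing by treatment and number was set beforehand, with earlier results of these data known. Deviations from group means correlated within the pairs (r of 0.62 to 0.89), and the labels give only the numbers. Numbers were not used to pair anti-EpCAM with untreated arrays (r of 0.71, -0.18 and 0.64 in SP). The fit was tested on simulated data in which the arrays of a pair shared an offset, so this could not check the pairing itself. For the antibody contrast the simulated spread was taken from the pair differences, which in most members vary less than the pair means. Members, lists and tests were chosen with earlier results of these data known. Genes given with full values were those passing, the 2 largest differences of each role and a fixed set; the other members are named so that each is accounted for. The number of arrays limits the precision. In the paired fit, p-values of the fraction contrasts and the interaction measure the spread of within-pair differences. Those of the antibody contrast measure the spread of pair means, and all pairs come from 1 cell line.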

Additional observations from a re-analysis of the deposited data

How the results depend on the processing

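Over both treatments, 5 members and 362 genes passed. Without the pairing (no replicate block) 0 members and 0 genes passed in any fraction contrast in limma (220 genes over both treatments, 58 under anti-EpCAM and 56 in untreated cells at an unadjusted p under 0.05), with an adjusted p of 1 for each member. With the GAPDH covariate 3 members passed. Leaving out 1 pair left 1 to 3 members and 72 to 430 genes, and leaving out anti-EpCAM pairs 1 and 3 together left 1 member, ARRDC4, and 27 genes. Members numbered 4 after quantile normalization (without PDK4) and 7 with an intensity trend, which added ADM and BHLHE40.

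In untreated cells 1 member and 14 genes passed. They numbered 2 and 44 with an intensity trend, 9 genes passed with the GAPDH covariate, and leaving out 1 pair gave 0 to 1 members and 0 to 16 genes. Under anti-EpCAM 1 member and 36 genes passed. The member, ARRDC4, was lost after quantile normalization (adjusted p = 0.0548), with no filter (0.0572), with the mean of probe sets (0.0654), without any 1 pair (0 members, 0 to 32 genes) and without anti-EpCAM pairs 1 and 3 (0 members, 0 genes). Genes numbered 14 with no filter, 13 with the mean of probe sets, 65 with an intensity trend and 9 with the GAPDH covariate. For the interaction and the antibody contrast, all alternatives run called 0 genes in limma, the replicate number as a block included.

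Gene values were recomputed for the members of the naming rule only. Among these PFKFB4, HIF1A and GAPDH, all near 0, changed sign, and the cause was not tested. PFKFB4 became -0.024 with the mean of probe sets, -0.026 with the GAPDH covariate, and -0.057 with anti-EpCAM pairs 1 and 3 left out; leaving out 1 pair gave -0.081 to 0.065, below 0 for untreated (-0.046) and anti-EpCAM pair 1. HIF1A became -0.0021 with the covariate and lay between -0.018 and 0.016 when 1 pair was left out, below 0 for untreated pairs 1 (-0.0098) and 2 (-0.0048) and anti-EpCAM pair 2. GAPDH lay between -0.042 and 0.045 when 1 pair was left out, below 0 for untreated pair 1 (-0.0055) and anti-EpCAM pair 3, and at -0.011 when both anti-EpCAM pairs 1 and 3 were. The precision is limited by 3 pairs in each treatment.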
